A study of Mus musculus with 12 samples.

Results

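Matrix metalloproteinases, their inhibitors and thrombospondin 1 were followed as a group of 10 genes in cultured mouse macrophages, namely Mmp8, Mmp9, Mmp12, Mmp13, Mmp14, Mmp19, Timp1, Timp2, Timp3 and Thbs1. They were chosen by symbol, as the 10 of 46078 gene rows in the count files whose Ensembl identifier maps to those names, with no threshold on a value. RNA sequencing had been done on bone marrow-derived macrophages of male C57BL/6 mice, grown for 7 days with supernatant of L929 cells, which supplies macrophage growth factors. Per the labels, the mutant genotype, called Dicer KO below, was LysMcre/+;Dicerfl/fl;ApoE-/-, and its littermate control was LysMcre/+;Dicer+/+;ApoE-/-, so every culture lacked a working Apoe gene. LysM-Cre is a recombinase placed in the Lyz2 locus and is active in myeloid cells, where it deletes the floxed part of Dicer1. A separate field of the labels calls the controls wildtype, and their file names carry wt for the LysM locus, which does not match their titles. All cultures received diluted ethanol overnight and then LPS (lipopolysaccharide of bacterial outer membranes, which signals through TLR4) or phosphate-buffered saline (vehicle), over 6 h. The stated LPS concentration is 100 ng/ul, a unit that the files cannot check. The 4 groups were Dicer KO LPS, control LPS, Dicer KO vehicle and control vehicle, each with 3 libraries. The labels do not say that the replicates came from separate mice, so p-values measure the spread between these libraries, which may be technical.

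Matrix metalloproteinases (MMPs) are zinc enzymes that are made as inactive proenzymes and cut collagens, elastin and other matrix proteins. Tissue inhibitors of metalloproteinases (TIMPs) bind the active site of these enzymes, and TIMP2 also takes part with membrane-bound MMP14 in activating proMMP2. Thrombospondin 1, the product of Thbs1, is a secreted matricellular protein that binds CD36 and CD47 and can activate latent TGF-beta. Macrophages are a main source of such enzymes in inflamed tissue, including the atherosclerotic plaques that ApoE-deficient mice develop. Dicer1 cuts microRNA precursors into mature microRNAs, which pair through their seed with sites in 3′ UTRs.

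Promoters are shown for Mmp13, Mmp14 and Timp1, which LPS raised most, and for Mmp12, which was lower in Dicer KO under both treatments. They come from RefSeq on build GRCm38.p6, on the strand of the gene, from 250 bases before to 50 bases after the annotated start, and capitals mark the motif matches. RefSeq promoter entries were matched for 7 of the 10 members (Mmp8, Mmp12, Mmp13, Mmp14, Timp1, Timp2 and Timp3). The Mmp13 promoter is chr9:7272264-7272563, that of the second listed Mmp12 start is chr9:7347124-7347423, that of Mmp14 is chr14:54431348-54431647 and that of Timp1 is chrX:20869916-20870215, all on the plus strand.
Mmp13: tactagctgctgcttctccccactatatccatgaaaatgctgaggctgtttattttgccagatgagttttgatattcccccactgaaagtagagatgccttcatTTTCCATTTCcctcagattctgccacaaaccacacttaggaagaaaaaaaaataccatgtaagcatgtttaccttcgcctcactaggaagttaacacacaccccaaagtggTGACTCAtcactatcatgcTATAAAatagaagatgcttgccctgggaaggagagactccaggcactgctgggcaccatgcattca
Mmp12: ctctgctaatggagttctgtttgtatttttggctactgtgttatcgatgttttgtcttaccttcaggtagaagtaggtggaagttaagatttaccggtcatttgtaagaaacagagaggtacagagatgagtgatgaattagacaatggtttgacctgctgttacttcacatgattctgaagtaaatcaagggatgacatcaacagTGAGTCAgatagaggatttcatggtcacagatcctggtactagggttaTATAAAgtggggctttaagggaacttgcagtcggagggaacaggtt
Mmp14: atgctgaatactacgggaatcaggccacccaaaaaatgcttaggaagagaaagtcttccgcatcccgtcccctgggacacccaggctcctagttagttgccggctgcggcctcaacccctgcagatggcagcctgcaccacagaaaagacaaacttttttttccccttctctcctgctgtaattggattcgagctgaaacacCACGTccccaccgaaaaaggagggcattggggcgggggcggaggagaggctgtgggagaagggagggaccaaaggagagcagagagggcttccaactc
Timp1: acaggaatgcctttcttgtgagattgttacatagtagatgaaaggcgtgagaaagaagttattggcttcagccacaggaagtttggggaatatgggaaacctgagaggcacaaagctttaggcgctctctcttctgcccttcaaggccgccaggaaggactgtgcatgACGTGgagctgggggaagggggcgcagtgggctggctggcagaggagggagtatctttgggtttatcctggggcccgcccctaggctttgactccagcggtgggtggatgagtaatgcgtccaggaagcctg

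The capitals mark 5 motifs searched by their letters. The AP-1 motif TGANTCA was sought on both strands, as were the NF-kappaB motif (GGGA, any base, then TTTCC), the interferon response motif (GAAA, any 2 bases, then GAAA) and the hypoxia response core ACGTG, while TATAAA was sought on the strand of the gene. Mmp13 held an AP-1 match beginning 35 bases before the start, a TATAAA match and, on the reverse strand, an interferon response match. The second Mmp12 promoter held an AP-1 match beginning 44 bases before its start and a TATAAA match, and the other Mmp12 promoter held none of the 5. Mmp14 and Timp1 each held only the hypoxia response core, and Mmp8, Timp2 and Timp3 held none of the 5. Of all 32851 mouse promoters of the same length, 7.81% held the AP-1 motif, 8.32% TATAAA, 3.44% the interferon response motif, 19.6% the hypoxia response core and 0.411% the NF-kappaB motif. No member promoter held these NF-kappaB letters, which says nothing of binding by the factor elsewhere or to other letters.

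Because Dicer1 was deleted, the 3′ UTRs of the members were searched for matches to the seeds (bases 2 to 8) of 9 microRNA families. The families were chosen by name, and the levels of the microRNAs themselves were not analysed here. The mature sequences are from RefSeq, with the seed in capitals, and the sites are from GENCODE M21 transcripts on GRCm38, with the 7 bases that pair with the seed in capitals.
mmu-miR-18a-5p: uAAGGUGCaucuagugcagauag
Thbs1 site: agcgctggcaatGCACCTTcta
mmu-let-7a-5p: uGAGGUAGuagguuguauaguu
Mmp14 site: cagacttcccagCTACCTCtgt
mmu-miR-155-5p: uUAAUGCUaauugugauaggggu
Timp2 site: cagcagacaggcAGCATTAagg

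The Thbs1 site lies at chr2:118125052-118125073, the Mmp14 site at chr14:54444635-54444656 and the Timp2 site at chr11:118303364-118303385, the last on the minus strand. Thbs1 had this 1 site among the 9 families. Mmp14 had a miR-19 site as well as the let-7 site, and Mmp19 had 1 miR-155 site. Timp2, whose 3′ UTR of 2630 bases is longer than the median of 1083 bases, had 2 sites each for miR-19 and miR-155 and 1 each for miR-21 and miR-181. Timp3, with a 3′ UTR of 3604 bases, had 2 sites for miR-181 and 1 each for miR-21 and miR-221. No site of the 9 families was found in Mmp8, Mmp9, Mmp12, Mmp13 or Timp1. Among 21193 mouse 3′ UTRs, 8.56% held the miR-18 site, 10.1% the let-7 site and 8.6% the miR-155 site. The shares were 11.9% for miR-19, 7.48% for miR-21, 17% for miR-181 and 9.74% for miR-221. A match is a description of the sequence and was not tested as a binding site.

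The libraries held 16172600 to 18886948 counts assigned to genes, with 17089 to 18512 genes detected in each. Levels below are CPM, the count scaled to library size, with library sizes corrected by the TMM method, which sets the typical gene at no change. A gene was called where edgeR's quasi-likelihood test, fitted to all 12 libraries and two-sided, gave a Benjamini-Hochberg adjusted p under 0.05 over the 13837 genes tested. Dicer1 was lower in the Dicer KO libraries, at 15.5 ± 1.1 CPM against 49.4 ± 2.84 CPM in control with LPS and at 19.7 ± 0.369 CPM against 43.7 ± 1.44 CPM in control with vehicle (SD, n = 3). Lyz2 differed far more, at 18.9 CPM in Dicer KO against 4060 CPM in control with LPS and 14.1 CPM against 5710 CPM with vehicle. The titles give LysMcre/+ to both genotypes, which leaves a Lyz2 copy without the Cre insertion. The near absence of Lyz2 in the Dicer KO libraries does not match their titles. The genotypes were therefore unlike in the LysM locus as well as in Dicer1, and what each contributes to a genotype difference cannot be told apart. In each vehicle group 1 library was unlike the rest, replicate 2 in Dicer KO and replicate 3 in control. Replicate pairs that hold these libraries had a chi-square per degree of freedom of 8.14 and 11.5 in Dicer KO and of 9.75 and 14 in control, against 2.27 and 2.52 for the remaining pair of each group.

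All 10 macrophage markers were detected in every group, and their summed level was 10200 to 10400 CPM in Dicer KO LPS, 13200 to 13700 CPM in control LPS, 7200 to 8040 CPM in Dicer KO vehicle and 12700 to 14000 CPM in control vehicle, Lyz2 included. Without Lyz2 the sum was 10153 to 10346 CPM in Dicer KO LPS, 9305 to 9464 CPM in control LPS, 7183 to 8022 CPM in Dicer KO vehicle and 7342 to 8031 CPM in control vehicle. Of 12 neutrophil markers, which matter here because neutrophils carry MMP8 and MMP9, the sum was 1000 to 1020 CPM in Dicer KO LPS, 935 to 1030 CPM in control LPS, 120 to 154 CPM in Dicer KO vehicle and 126 to 162 CPM in control vehicle. Most of the sum in LPS was Lcn2, a secreted siderophore binder that macrophages also make, at 762 to 846 CPM over both genotypes. Of the other neutrophil genes S100a9 measured 31.1 to 67.5 CPM over the 12 libraries, S100a8 19.1 to 46.3 CPM, Ngp 22.9 to 43 CPM and Ltf 7.21 to 23.3 CPM, while Ly6g, Elane and Mpo were at most 0.162, 1.2 and 3.21 CPM. Of 10 stromal markers the sum was 34.9 to 38.1 CPM in Dicer KO LPS, 23.7 to 26.0 CPM in control LPS, 1.54 to 2.14 CPM in Dicer KO vehicle and 1.43 to 1.74 CPM in control vehicle, nearly all of it Pdgfrb in LPS, while Lum was at 0 in all 12 libraries and Col1a1 was at most 0.372 CPM. Of 8 platelet markers, which matter because platelets carry thrombospondin, the sum was 64.2 to 96.5 CPM in all groups, nearly all of it Pf4. The mean log2 CPM of the 4 tested platelet markers was 1.34 to 1.62 in Dicer KO vehicle and 2.16 to 2.40 in control vehicle. Among them Treml1 averaged 3.45 ± 0.913 CPM in Dicer KO vehicle and 6.67 ± 0.472 CPM in control vehicle, 1.92-fold lower (edgeR adjusted p = 0.000383), and was at most 0.197 CPM in LPS. In vehicle Gp1ba was 3.37-fold lower in Dicer KO (edgeR adjusted p = 0.000536) and Itga2b 2.41-fold lower (edgeR adjusted p = 0.0183). Both rest on few counts. Gp1ba measured 0.419 to 0.463 CPM in Dicer KO vehicle and 1.25 to 1.66 CPM in control vehicle. Itga2b measured 0.233 to 0.465 CPM in Dicer KO vehicle and 0.71 to 0.896 CPM in control vehicle. Pf4 was not lower there, at 67 to 75.1 CPM in Dicer KO vehicle and 55.7 to 67.6 CPM in control vehicle. The part of other cells in the results below was not tested, and in bulk RNA fewer cells of a type and less RNA per cell cannot be told apart.

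**Figure D1:**
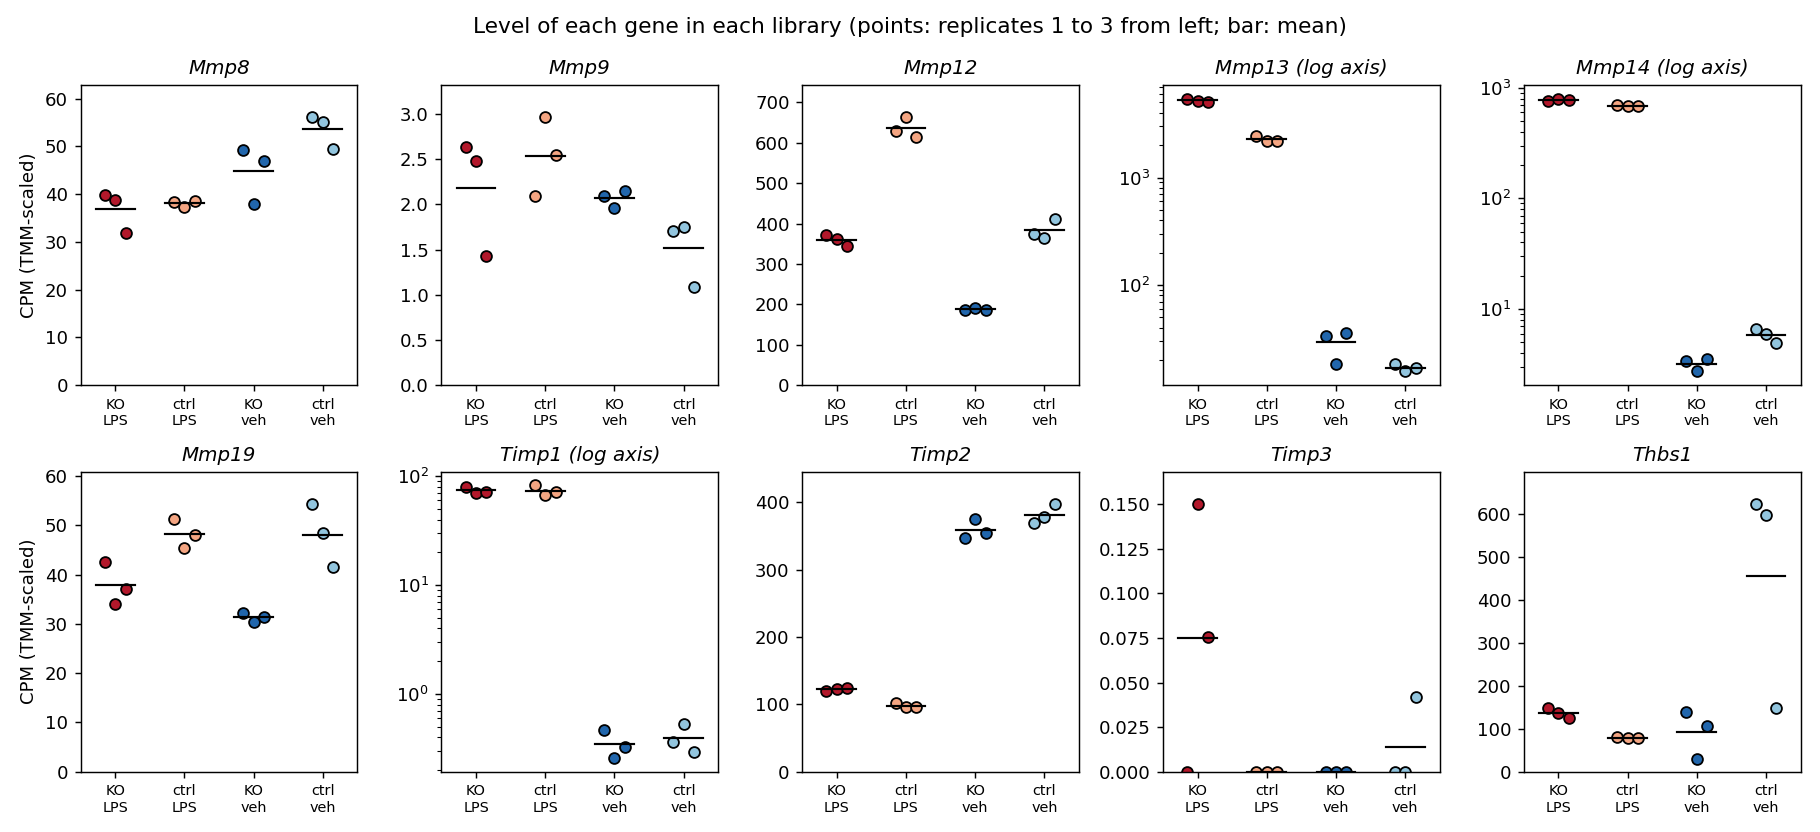
Level of each of the 10 genes in each library, in TMM-scaled CPM, with points for the 3 replicates and a bar for the mean (log axes for Mmp13, Mmp14 and Timp1). Mmp13, Mmp14 and Timp1 are far higher in the LPS libraries of both genotypes, Timp2 is higher in vehicle, Mmp12 is lower in Dicer KO than in control under each treatment, and Thbs1 is spread widely in the vehicle groups.

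Of the 10 genes, 9 passed the filter on low counts. Timp3, the matrix-bound inhibitor, did not: it had 3 counts in all in Dicer KO LPS, 1 in control vehicle and none in control LPS or Dicer KO vehicle, the highest level being 0.150 CPM in Dicer KO LPS replicate 2, and no fold change is given. The Timp3 exons are also overlapped over 21.28% of their length by Syn3 on the opposite strand, and the strand setting of the counting is not given in the sources used here. Levels can be compared between genes per kilobase of the longest coding transcript. On that scale Mmp13 led in LPS, with 1956 ± 69.9 CPM per kb in Dicer KO and 850 ± 48.2 CPM per kb in control, followed by Mmp14 with 242 ± 4.90 and 213 ± 1.90 CPM per kb in the same order of genotypes. In vehicle Mmp12 and Timp2 led, with 52.0 ± 0.864 and 96.9 ± 3.86 CPM per kb in Dicer KO and 106 ± 7.03 and 103 ± 4.0 CPM per kb in control (SD, n = 3). With the union of all exons as the length, Timp2 and Thbs1 in control vehicle came before Mmp12. Mmp9 was low in all groups, at under 1 CPM per kb.

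In LPS against vehicle, 5 of the 9 tested genes were called higher in Dicer KO cells and 2 were called lower, and in control cells 5 were called higher and 3 lower. The background was high. Of all genes tested 80.1% were called in Dicer KO (37.4% higher and 42.7% lower) and 79.1% in control (38% higher and 41.1% lower), so most of the table is called and the members' counts say little by themselves. With library totals in place of TMM, 4 members were higher and 4 lower in each genotype. Of all genes tested, 2637 were then higher and 9623 lower in Dicer KO, and 3066 higher and 8737 lower in control. The median log2 fold change of the 9 with TMM was 0.56 in Dicer KO and 0.73 in control, beside -0.10 and -0.06 over all genes in the same order. With TMM, Mmp13, Mmp14 and Timp1 each rose more than 100-fold in both genotypes, while Timp2 fell. With library totals the rises were 106-fold, 145-fold and 123-fold in Dicer KO and 92.5-fold, 82.2-fold and 127-fold in control, for Mmp13, Mmp14 and Timp1 in that order.

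Mmp13 (ENSMUSG00000050578, GRCm38 chromosome 9, 7272514 to 7283331), which encodes collagenase 3, the main interstitial collagenase of mice, was the most abundant member in LPS. Its 3 libraries measured 5433, 5191 and 5065 CPM in Dicer KO LPS and 33.7, 18.5 and 35.7 CPM in Dicer KO vehicle. In control it measured 2419, 2205 and 2189 CPM with LPS and 18.5, 15.7 and 17.1 CPM with vehicle. No library of either LPS group came near a vehicle library, and the rise was 178-fold in Dicer KO (log2 fold change 7.47 ± 0.22 SE, edgeR adjusted p = 5.25e-11) and 133-fold in control (7.06 ± 0.22, edgeR adjusted p = 9.24e-11). The Mmp13 response was larger in Dicer KO by 0.42 ± 0.26 on the log2 scale, a difference that did not pass the test (edgeR adjusted p = 0.248).

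Mmp14 (ENSMUSG00000000957, chromosome 14, 54431612 to 54445364) encodes the membrane-anchored collagenase MT1-MMP. It measured 768, 800 and 783 CPM in Dicer KO LPS and 3.40, 2.73 and 3.5 CPM in Dicer KO vehicle, and 697, 685 and 691 CPM in control LPS against 6.64, 5.95 and 4.93 CPM in control vehicle. The vehicle libraries of Dicer KO all lay under those of control, and the LPS libraries of Dicer KO all lay above those of control. The rise was 243-fold in Dicer KO (7.92 ± 0.09, edgeR adjusted p = 4.99e-21) and 118-fold in control (6.88 ± 0.09, edgeR adjusted p = 9.92e-21), or 7.18 in Dicer KO and 6.36 in control on the log2 scale with library totals. The difference of these responses was itself called, at 1.04 ± 0.13 on the log2 scale (edgeR adjusted p = 1.08e-05).

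Timp1 (ENSMUSG00000001131, chromosome X, 20870166 to 20874735, within the span of Syn1 on the opposite strand but sharing no exon bases with it) encodes a secreted inhibitor that is induced by inflammatory stimuli in many cells. It measured 79.95, 70.9 and 72.1 CPM in Dicer KO LPS and 0.465, 0.258 and 0.327 CPM in Dicer KO vehicle. In control it measured 82.5, 66.9 and 71.0 CPM with LPS and 0.364, 0.530 and 0.293 CPM with vehicle. The genotypes overlapped under each treatment, whereas LPS and vehicle were far apart. The rise was 207-fold in Dicer KO (7.69 ± 0.15, edgeR adjusted p = 1.17e-18) and 182-fold in control (7.51 ± 0.15, edgeR adjusted p = 8.49e-19), against vehicle groups with only 22 and 29 counts in all.

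Timp2 (ENSMUSG00000017466, chromosome 11, 118301069 to 118355740, minus strand), the inhibitor that also takes part in proMMP2 activation, went the other way. It measured 120, 123 and 124 CPM in Dicer KO LPS and 348, 375 and 355 CPM in Dicer KO vehicle, and 103, 95.5 and 96.8 CPM in control LPS against 369, 378 and 398 CPM in control vehicle. It was lower in every LPS library than in every vehicle library, 2.94-fold in Dicer KO (-1.56 ± 0.05, edgeR adjusted p = 2.39e-15) and 3.88-fold in control (-1.96 ± 0.05, edgeR adjusted p = 1.07e-16). With library totals the falls were 4.94-fold in Dicer KO (-2.30) and 5.58-fold in control (-2.48). The fall was smaller in Dicer KO, by 0.40 ± 0.07 on the log2 scale (edgeR adjusted p = 0.00036).

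Mmp12 (ENSMUSG00000049723, chromosome 9, 7344381 to 7369499), which encodes macrophage elastase, rose modestly with LPS. It measured 370, 362 and 345 CPM in Dicer KO LPS and 186, 191 and 185 CPM in Dicer KO vehicle, and 630, 664 and 615 CPM in control LPS against 375, 363 and 412 CPM in control vehicle. LPS and vehicle libraries did not overlap within a genotype, but the Dicer KO libraries with LPS overlapped the control libraries with vehicle. The rise was 1.91-fold in Dicer KO (0.94 ± 0.06, edgeR adjusted p = 1.79e-11) and 1.66-fold in control (0.73 ± 0.06, edgeR adjusted p = 6.36e-10), or 1.14-fold and 1.16-fold with library totals. The difference of 0.21 ± 0.08 on the log2 scale was not called (edgeR adjusted p = 0.0522). It was called with the size factors of DESeq2 (0.26, edgeR adjusted p = 0.0167), with DESeq2 itself (adjusted p = 0.00489), with the stricter low-count filter (edgeR adjusted p = 0.0363), without a filter (edgeR adjusted p = 0.028) and in 4 of 12 fits that left out 1 library, and it was -0.02 with library totals (edgeR adjusted p = 0.862). Mmp1b on the opposite strand, which overlaps 2.17% of the Mmp12 exons, held at most 2 counts in any group.

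The other 3 metalloproteinases had small differences between LPS and vehicle. Mmp8 (ENSMUSG00000005800, chromosome 9, 7558456 to 7568485), neutrophil collagenase, measured 36.9 ± 4.31 CPM in Dicer KO LPS and 44.8 ± 5.99 CPM in Dicer KO vehicle, which overlapped, and 38.1 ± 0.672 CPM in control LPS and 53.6 ± 3.60 CPM in control vehicle, which did not (SD, n = 3). It was called lower in both genotypes, 1.22-fold in Dicer KO (edgeR adjusted p = 0.0125) and 1.41-fold in control (edgeR adjusted p = 0.00012). The Dicer KO call was lost with the size factors of DESeq2 (edgeR adjusted p = 0.0596) and with DESeq2 itself (adjusted p = 0.0743). It was also lost when fitted to the 2 Dicer KO groups alone (edgeR adjusted p = 0.0643). Leaving out either of 2 libraries, Dicer KO vehicle replicate 1 or Dicer KO LPS replicate 3, lost it too (edgeR adjusted p = 0.0646 and 0.0813). With library totals Mmp8 was 2.04-fold lower in Dicer KO and 2.02-fold lower in control. Mmp9 (ENSMUSG00000017737, chromosome 2, 164940780 to 164955850), gelatinase B, was low, at 2.18 ± 0.653 CPM in Dicer KO LPS and 2.07 ± 0.0980 CPM in Dicer KO vehicle, and at 2.54 ± 0.435 CPM in control LPS and 1.51 ± 0.370 CPM in control vehicle. Its rise in control was called (1.68-fold, edgeR adjusted p = 0.00699; 0.378 with library totals) and its difference in Dicer KO was not (1.05-fold, edgeR adjusted p = 0.778; -0.67 and 0.0161 with library totals), but the difference between these responses was not called either (-0.67 ± 0.33 on the log2 scale, edgeR adjusted p = 0.136). Mmp19 (ENSMUSG00000025355, chromosome 10, 128790910 to 128800824), a secreted metalloproteinase of basement membrane proteins, differed by 1.21-fold in Dicer KO (0.27 ± 0.10, edgeR adjusted p = 0.0157), which turned to -0.48 with library totals (edgeR adjusted p = 0.000199) and was lost without Dicer KO LPS replicate 1 (edgeR adjusted p = 0.108), and by 0.00 ± 0.09 on the log2 scale in control (edgeR adjusted p = 0.984).

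**Figure D2:**
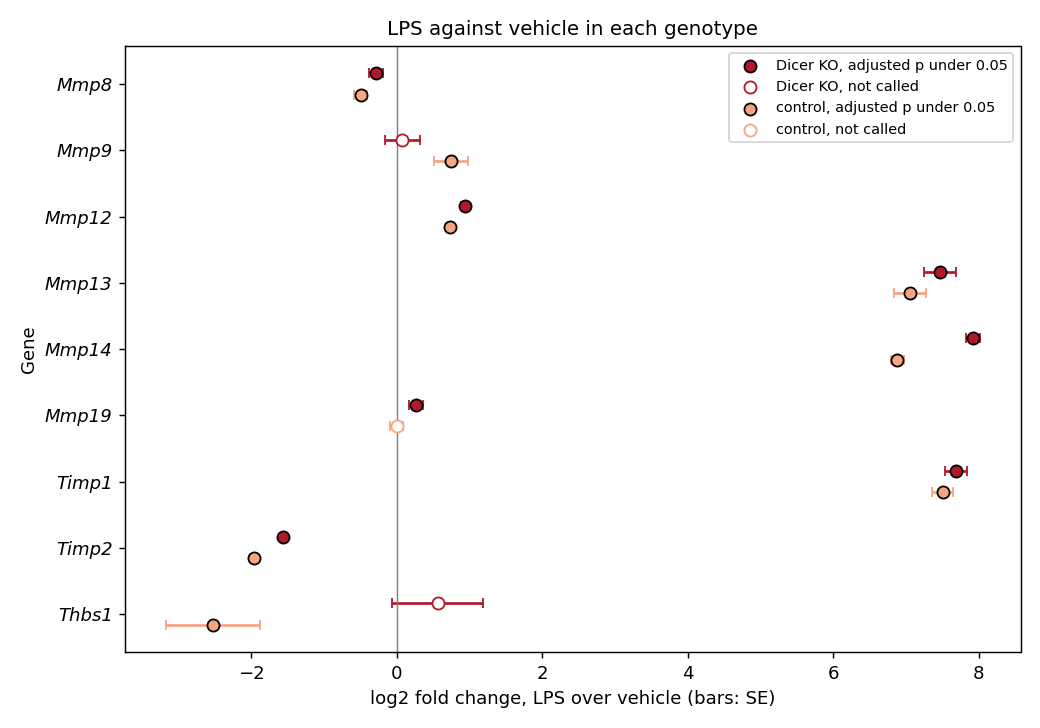
Log2 fold change of LPS over vehicle for the 9 tested genes in Dicer KO and control cells, with the standard error of the model and filled points for an adjusted p under 0.05. Mmp13, Mmp14 and Timp1 lie between 6.88 and 7.92, Timp2 lies below 0 in both genotypes, and Thbs1 lies at 0.56 in Dicer KO and -2.53 in control.

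The rises of Mmp13, Mmp14 and Timp1 and the fall of Timp2 changed the makeup of the group. Summed per kilobase, the 6 metalloproteinase mRNAs stood at 19.6 to 20.4 times the sum of the 3 TIMP mRNAs in the Dicer KO LPS libraries, 10.95 to 12.3 times in control LPS, 0.847 to 1.02 times in Dicer KO vehicle and 1.42 to 1.53 times in control vehicle. These ratios are taken within a library and do not depend on the scaling, but they depend on the length used. With the union of all exons they were 18.6 to 19.3, 9.55 to 10.6, 0.607 to 0.768 and 0.942 to 1.04 in the same order of groups. The genotypes did not overlap, and Dicer KO stood above control in LPS and below it in vehicle. Mmp13 made up 83.9 to 84.6% of the metalloproteinase sum in Dicer KO LPS, 66.0 to 68.2% in control LPS, 8.04 to 14.1% in Dicer KO vehicle and 4.03 to 4.52% in control vehicle. Mmp12 held the largest share of that sum in vehicle, 54.0 to 61.6% in Dicer KO and 68.2 to 73.7% in control. Of the TIMP sum, Timp2 made up 26.3 to 29.2% in Dicer KO LPS, 22.9 to 25.4% in control LPS and more than 99% in both vehicle groups, the rest being Timp1. Mmp14 stood at 7.22 to 7.46 times Timp2 in Dicer KO LPS and 7.78 to 8.22 times in control LPS, or 4.12 to 4.25 and 4.44 to 4.69 times with the union of exons. These are mRNA levels and say nothing of active enzyme.

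Between the genotypes, in LPS, 3 of the 9 tested genes were higher in Dicer KO and 2 were lower, beside 55.8% called of all genes tested, 28.8% higher and 27% lower. In vehicle, 1 was higher and 5 were lower, beside 46.2% called of all genes tested, 25% higher and 21.2% lower. The median log2 fold change of the 9 was 0.02 in LPS and -0.26 in vehicle, beside -0.03 and 0.01 over all genes. Mmp13 was the member higher under both treatments, and Mmp12 and Mmp19 were lower under both. Mmp14 was called higher in LPS and lower in vehicle with TMM, but lower under both treatments with library totals. With library totals 1 member was higher and 6 were lower under each treatment. Of all genes tested, 1885 were then higher and 7626 lower in LPS, and 2229 higher and 4577 lower in vehicle. Lower calls thus outnumbered higher ones over all genes as well, and these member counts say little by themselves.

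Mmp13 was 2.3-fold higher in Dicer KO than in control with LPS (1.203 ± 0.17, edgeR adjusted p = 0.000105), and every Dicer KO library lay above every control library. In vehicle it averaged 29.3 ± 9.43 CPM in Dicer KO and 17.1 ± 1.37 CPM in control (SD, n = 3), 1.72-fold higher (0.78 ± 0.20, edgeR adjusted p = 0.00803). Dicer KO vehicle replicate 2 lay next to the highest control library, at 18.49 CPM against 18.45 CPM, and the groups touched without overlapping. Fitted to the 2 vehicle groups alone, the call was lost by a narrow margin (0.76, edgeR adjusted p = 0.0501).

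Mmp12 was 1.77-fold lower in Dicer KO with LPS (-0.83 ± 0.06, edgeR adjusted p = 7.36e-10) and 2.04-fold lower with vehicle (-1.03 ± 0.06, edgeR adjusted p = 1.41e-10). Every Dicer KO library lay under every control library of the same treatment. Mmp19 was 1.27-fold lower with LPS (-0.35 ± 0.09, edgeR adjusted p = 0.00482), at 42.5, 34.0 and 37.0 CPM in Dicer KO and 51.2, 45.4 and 48.0 CPM in control. With vehicle it was 1.54-fold lower (-0.62 ± 0.09, edgeR adjusted p = 3.54e-05), at 32.2, 30.5 and 31.4 CPM in Dicer KO and 54.4, 48.5 and 41.5 CPM in control. The groups did not overlap under either treatment. Of the Mmp19 exons, 28.33% are overlapped on the opposite strand by Tmem198b and Gm47093, and Tmem198b averaged 23.7 ± 2.01 CPM in Dicer KO LPS, 27.9 ± 1.32 CPM in control LPS, 26.7 ± 1.03 CPM in Dicer KO vehicle and 35.2 ± 3.26 CPM in control vehicle, so that it too was lower in Dicer KO. Its part in the Mmp19 difference was not tested.

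Mmp14 in vehicle was 1.81-fold lower in Dicer KO (-0.86 ± 0.12, edgeR adjusted p = 1.1e-05), at levels that are small beside those in LPS. In LPS it was 1.13-fold higher (0.18 ± 0.06, edgeR adjusted p = 0.0177). That small rise was lost without control LPS replicate 2 (edgeR adjusted p = 0.0664) or Dicer KO LPS replicate 2 (edgeR adjusted p = 0.0694), and it became -0.17 (edgeR adjusted p = 0.0167) when libraries were scaled by their totals. Timp2 in LPS was 1.24-fold higher in Dicer KO (0.32 ± 0.05, edgeR adjusted p = 6.23e-05), with the lowest Dicer KO library at 120 CPM and the highest control library at 103 CPM, but -0.04 (edgeR adjusted p = 0.519) with library totals. In vehicle the Timp2 groups overlapped (-0.09 ± 0.05, edgeR adjusted p = 0.169), and with library totals the difference was called at -0.21 (edgeR adjusted p = 0.0013). Scaling by totals, which moved the median of all genes to -0.38 in LPS and -0.12 in vehicle, gave 1885 genes higher and 7626 lower in LPS, against 3983 and 3741 with TMM, and 2229 higher and 4577 lower in vehicle, against 3459 and 2935 with TMM.

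With TMM, Timp1 and Mmp9 were called under neither treatment, and Mmp8 was called in vehicle. Timp1 differed by 0.02 ± 0.08 on the log2 scale in LPS (edgeR adjusted p = 0.868) and by -0.16 ± 0.40 in vehicle (edgeR adjusted p = 0.768). With library totals the LPS difference of Timp1 was -0.33 (edgeR adjusted p = 0.000707). Mmp8 was 1.19-fold lower in Dicer KO vehicle, at 49.3, 38.0 and 47.0 CPM against 56.1, 55.1 and 49.4 CPM in control (-0.26 ± 0.09, edgeR adjusted p = 0.0267), and not called in LPS (-0.05 ± 0.10, edgeR adjusted p = 0.719; -0.40 and 0.00193 with library totals). The vehicle call of Mmp8 was lost without control replicate 1 or 2 or Dicer KO replicate 2 (edgeR adjusted p = 0.0972, 0.0846 and 0.119). Mmp9 was not called under either treatment, at -0.22 ± 0.24 in LPS (edgeR adjusted p = 0.459, or 0.0472 with library totals) and 0.45 ± 0.23 in vehicle (edgeR adjusted p = 0.122).

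**Figure D3:**
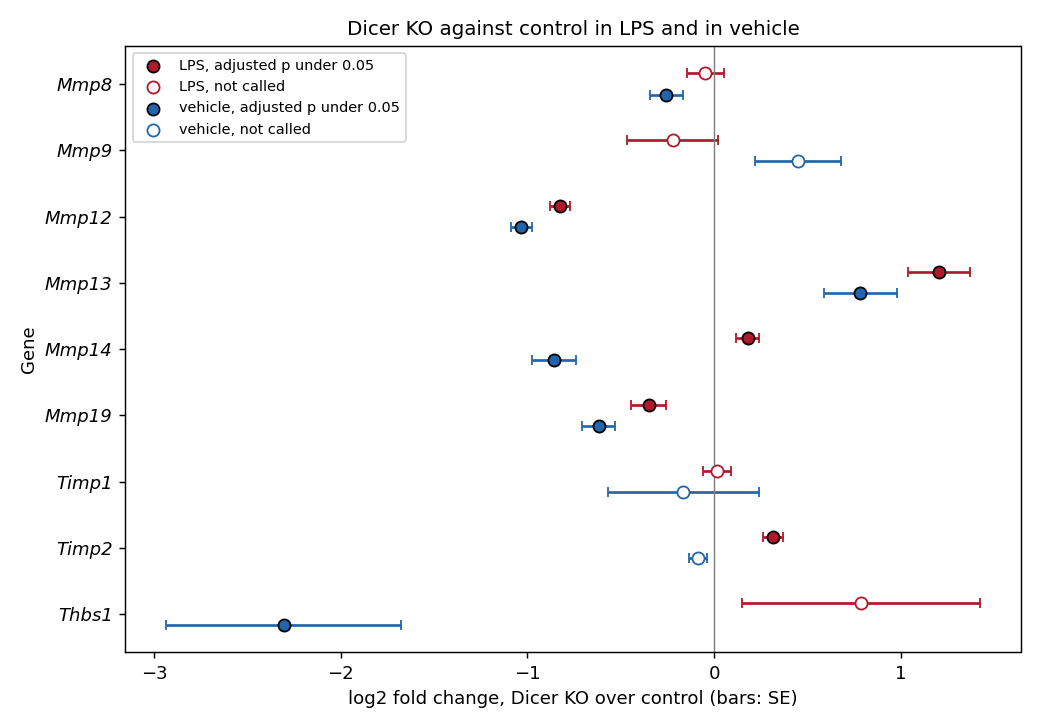
Log2 fold change of Dicer KO over control for the 9 tested genes in LPS and in vehicle, with the standard error of the model and filled points for an adjusted p under 0.05. Mmp13 lies above 0 and Mmp12 and Mmp19 below 0 under both treatments, Mmp14 lies at 0.18 in LPS (-0.17 with library totals) and -0.86 in vehicle, and Thbs1 has the widest errors.

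Thbs1 (ENSMUSG00000040152, chromosome 2, 118111876 to 118127133) had the widest genotype difference of the members in vehicle and also the widest spread. In LPS it measured 149, 136 and 125 CPM in Dicer KO and 81.0, 79.0 and 78.1 CPM in control. In vehicle it measured 140, 29.0 and 107 CPM in Dicer KO and 624, 598 and 149 CPM in control. Within each vehicle group 1 library lay far under the others, Dicer KO replicate 2 and control replicate 3, the same libraries that stood apart over all genes. The genotypes did not overlap under either treatment, but the highest Dicer KO vehicle library was only just below the lowest control vehicle library.

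In vehicle Thbs1 was 4.94-fold lower in Dicer KO (-2.31 ± 0.63, edgeR adjusted p = 0.0165). The platelet markers Treml1, Gp1ba and Itga2b were also lower there, with Gp1ba and Itga2b at no more than 1.66 CPM in any vehicle library. Pf4, nearly all of the platelet sum, was not, at 67 to 75.1 CPM in Dicer KO and 55.7 to 67.6 CPM in control. The part of platelets was not tested. The size was alike without both libraries that stood apart (-2.30 ± 0.11, edgeR adjusted p = 4.37e-09), with 2 libraries left in each vehicle group. Those left out held the lowest Thbs1 of their groups, so leaving them out narrows the spread by itself. The p-values of fits without them are no added support. The call was lost without control replicate 1 (-2.01, edgeR adjusted p = 0.0525) or control replicate 2 (-2.06, edgeR adjusted p = 0.0516), and when fitted to the 2 vehicle groups alone (-2.34, edgeR adjusted p = 0.0948). In LPS Thbs1 was 1.72-fold higher in Dicer KO (0.79 ± 0.64), which was not called with the spread shared over all groups (edgeR adjusted p = 0.333). It was called without the 2 vehicle libraries that stood apart (0.79 ± 0.09, edgeR adjusted p = 1.53e-05) and with the LPS groups alone (0.77 ± 0.06, edgeR adjusted p = 4.57e-12).

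LPS lowered Thbs1 in control cells, 5.76-fold (-2.53 ± 0.64, edgeR adjusted p = 0.00591), and the call held when each library was left out in turn (edgeR adjusted p at most 0.0223). In Dicer KO cells it differed by 0.56 ± 0.63 on the log2 scale (edgeR adjusted p = 0.428), and the LPS libraries overlapped those of vehicle. The difference of the responses was 3.09 ± 0.89 (edgeR adjusted p = 0.0282), and it missed the threshold in 8 of 12 fits that left out 1 library (edgeR adjusted p up to 0.0625). Without both libraries that stood apart it was 3.09 ± 0.14 (edgeR adjusted p = 8.22e-09), where the narrower spread follows from leaving out the lowest Thbs1 values in vehicle. The non-coding gene Gm29233 overlaps 3.42% of the Thbs1 exons on the opposite strand and averaged 6.64 ± 0.761 CPM in Dicer KO LPS, 5.28 ± 0.316 CPM in control LPS, 5.35 ± 3.63 CPM in Dicer KO vehicle and 24.2 ± 14 CPM in control vehicle. It was thus highest and most spread in the group where Thbs1 was.

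A list of 10 hypoxia-responsive genes, kept as a measure of culture state, moved with the Thbs1 spread in vehicle. Its mean log2 CPM was 5.21, 4.45 and 5.22 in Dicer KO vehicle replicates 1 to 3 and 6.43, 6.35 and 5.97 in the control vehicle replicates. The library with the lowest Thbs1 was thus the lowest of its group on this list in both genotypes. The same libraries were also lowest of their groups in mean log2 CPM of 5 marker lists. The macrophage, neutrophil, B cell, stromal and platelet lists stood at 8.44, 2.20, 1.18, -1.02 and 1.34 in Dicer KO vehicle replicate 2. They stood at 9.21, 2.31, 2.0, -0.66 and 2.16 in control vehicle replicate 3. The macrophage gap was small, 8.44 against 8.58 and 8.56 in Dicer KO replicates 1 and 3. The B cell value rests on 1 tested gene and the stromal value on 2. In control replicate 3 the dendritic (-1.05) and T and NK cell (3.29) lists were not lowest. In LPS the list stood at 4.45, 4.07 and 4.0 in Dicer KO and 5.76, 6.03 and 5.95 in control, where Thbs1 was higher in Dicer KO. The part of culture state in the Thbs1 values was not tested.

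**Figure D4:**
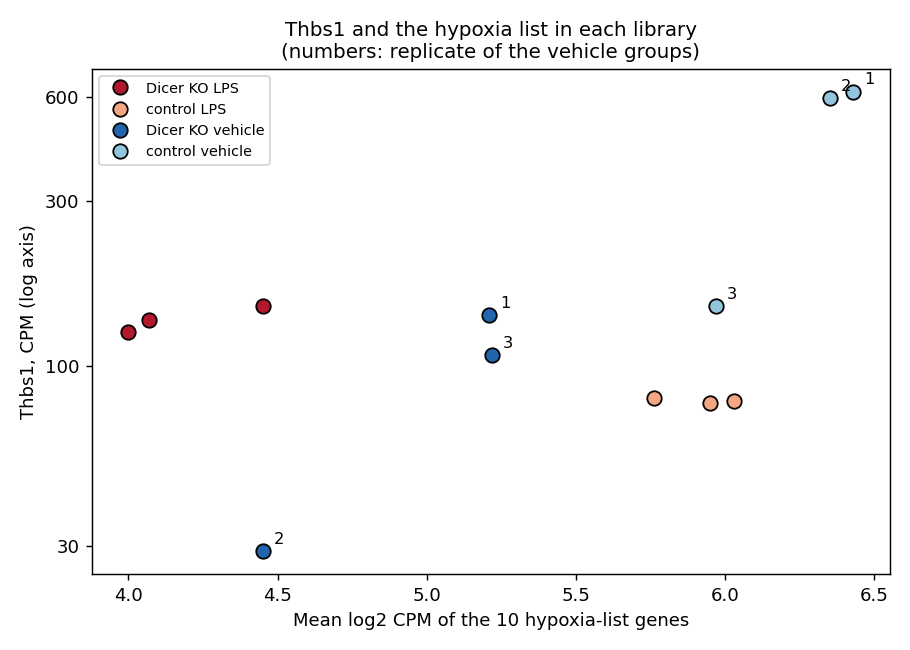
Thbs1 level in CPM on a log axis against the mean log2 CPM of the 10 hypoxia-list genes in each of the 12 libraries, with replicate numbers for the vehicle groups. Dicer KO vehicle replicate 2 and control vehicle replicate 3 are lowest in their groups on both axes, at 4.45 and 5.97 on the list.

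Over the 9 tested genes, 3 differences of LPS response between the genotypes were called (Mmp14, Timp2 and Thbs1), all positive, beside 33.7% called of all genes tested, 14.9% positive and 18.8% negative. The median difference of the 9 was 0.27, beside -0.04 over all genes. The genotype comparisons and the LPS comparisons share libraries with this one and are not separate evidence for it. Scaling by library totals left all 3 positive, at 0.81 for Mmp14 (edgeR adjusted p = 7.94e-05), 0.18 for Timp2 (edgeR adjusted p = 0.0495) and 2.87 for Thbs1 (edgeR adjusted p = 0.0296), and with it Mmp9 was called at -0.89 (edgeR adjusted p = 0.0408). Over all genes tested, 997 differences were then called positive and 5136 negative.

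Genes with the most similar pattern over the 12 libraries were found by the root mean square difference of log2 CPM after centring each gene, among 9723 genes. Cd40, which encodes a costimulatory receptor of antigen-presenting cells, was nearest to Mmp13 (0.17, beside a spread of Mmp13 itself of 3.69), then Fpr1 (0.27), a receptor for formylated bacterial peptides, and Dusp2 (0.33), a phosphatase of MAP kinases. Mmp14 and Timp1 were among the 3 nearest of each other (0.31), together with Tarm1 (0.27 from Mmp14 and 0.34 from Timp1). Col27a1 (0.30) was nearest to Mmp14 after Tarm1, and Ifitm7 (0.28) was nearest to Timp1. Timp2 was followed closely by Tbxas1 (0.09), thromboxane synthase, Ap1s2 (0.10) and Nfatc1 (0.11), against its own spread of 0.89. For Mmp12 the nearest were Peli3 (0.20), Kdm5b (0.21) and Itsn1 (0.22), against a spread of 0.63. Thbs1 had no close match, its nearest being Rab44 at 0.62 beside its own spread of 1.17, then Mgst2 (0.75) and Cyp4f18 (0.78). The differences are in log2 units, and for Mmp8, Mmp9 and Mmp19 the nearest genes were Ezh1 (0.08), Brms1l (0.19) and Tfb1m (0.11), beside spreads of 0.24, 0.37 and 0.28.

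Other genes of matrix turnover were taken from a list of 80 chosen by role, of which 45 could be tested. In LPS 22 of the 45 were higher in Dicer KO and 8 lower, with a median of 0.21, beside 28.8% higher and 27% lower of all genes tested and a median of -0.03. In vehicle 17 were higher and 8 lower, with a median of 0.08, beside 25% higher and 21.2% lower and a median of 0.01. With library totals the counts were 13 higher and 20 lower in LPS, beside 1885 higher and 7626 lower of all genes tested. In vehicle they were 13 higher and 12 lower, beside 2229 and 4577. The balance of directions thus depends on the scaling, for the list as for all genes. LPS raised 26 and lowered 14 in Dicer KO (median 0.76) and raised 26 and lowered 16 in control (median 0.58), against 19 and 20 in Dicer KO and 21 and 19 in control with library totals. Of all genes tested 80.1% were called with LPS in Dicer KO and 79.1% in control, with TMM. With library totals 2637 of all genes tested were higher and 9623 lower in Dicer KO, and 3066 higher and 8737 lower in control.

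Among 8 tested genes of proenzyme activation, 6 were higher in Dicer KO LPS and 2 lower, and in vehicle 1 was higher and 2 were lower, where 55.8% of all genes tested were called in LPS and 46.2% in vehicle. Plaur, the receptor of urokinase, averaged 54.9 ± 4.30 CPM in Dicer KO LPS and 17.8 ± 1.70 CPM in control LPS, 3.08-fold higher (edgeR adjusted p = 5.11e-10), but 16.6 ± 0.902 CPM in Dicer KO vehicle and 21.2 ± 3.23 CPM in control vehicle, 1.28-fold lower (edgeR adjusted p = 0.00872). Furin, a convertase that cuts the propeptide of MMP14, averaged 752 ± 58.6 CPM in Dicer KO LPS and 133 ± 2.91 CPM in Dicer KO vehicle, 5.67-fold higher (edgeR adjusted p = 3.85e-17), and 654 ± 34.0 CPM in control LPS and 152 ± 5.90 CPM in control vehicle, 4.3-fold higher (edgeR adjusted p = 4.46e-16). With TMM, the difference of the LPS responses was called for Plaur, at 1.98 ± 0.14 on the log2 scale (edgeR adjusted p = 4.37e-08), and for Furin, at 0.40 ± 0.09 (edgeR adjusted p = 0.00148). Library totals moved the median difference over all genes from -0.042 to -0.269, and the values of Plaur and Furin with them are not reported here.

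Of 17 other metalloproteinase genes 6 could be tested. In LPS 1 of these was higher in Dicer KO and 3 were lower, beside 28.8% and 27% of all genes tested. The higher gene was Mmp25, a membrane-anchored metalloproteinase of leukocytes, which averaged 116 ± 4.88 CPM in Dicer KO LPS and 39.1 ± 2.13 CPM in control LPS, 2.97-fold higher (1.57 ± 0.06, edgeR adjusted p = 7.04e-13). It rose with LPS 103-fold in Dicer KO and 104-fold in control (edgeR adjusted p = 1.56e-20 and 3.37e-19), with TMM. Of 9 tested ADAM and ADAMTS genes, which encode related membrane-bound and secreted proteinases, 6 were higher in Dicer KO LPS and 1 lower, and 5 were higher and 2 lower in vehicle, against those shares of 55.8% called in LPS and 46.2% in vehicle. Adam19 averaged 37.0 ± 2.60 CPM in Dicer KO vehicle and 13.8 ± 1.95 CPM in control vehicle, 2.67-fold higher (edgeR adjusted p = 2.16e-09), and Adam9 averaged 467 ± 10.6 CPM in Dicer KO LPS and 291 ± 3.58 CPM in control LPS, 1.6-fold higher (edgeR adjusted p = 5.48e-10). Of the Adam19 exons 10.09% are overlapped on the opposite strand.

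Of 12 tested genes of the thrombospondin family and its receptors, 5 were higher in Dicer KO LPS and 2 lower, and 6 were higher and 1 lower in vehicle, 7 of 12 under each treatment, which is near the background of 55.8% in LPS and 46.2% in vehicle. Itgb3, the beta 3 integrin chain that binds thrombospondin 1 with the alpha V chain, averaged 7.64 ± 0.908 CPM in Dicer KO LPS and 1.07 ± 0.473 CPM in control LPS, 7.14-fold higher (2.84 ± 0.30, edgeR adjusted p = 1.71e-06). In vehicle Itgb3 averaged 38.7 ± 6.43 CPM in Dicer KO and 13.8 ± 2.30 CPM in control, 2.8-fold higher (edgeR adjusted p = 1.4e-06). Its partner Itgav averaged 120 ± 7.25 CPM in Dicer KO vehicle and 71.3 ± 2.68 CPM in control vehicle, 1.68-fold higher (edgeR adjusted p = 5.06e-09). In vehicle, then, these receptor chains were higher in Dicer KO where Thbs1 was lower. With LPS Itgav was also higher in Dicer KO (1.41-fold, edgeR adjusted p = 2.79e-07), where Thbs1 was higher too, though not called. Of 9 tested matrix proteins, 4 were higher and none lower in Dicer KO LPS, beside 28.8% higher and 27% lower of all genes tested. Tnc, the matricellular protein tenascin C, averaged 15.9 ± 1.85 CPM in Dicer KO and 4.06 ± 0.670 CPM in control with LPS, 3.93-fold higher (edgeR adjusted p = 7.86e-09). Tnc had 1 count in all in Dicer KO vehicle and 3 in control vehicle.

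**Figure D5:**
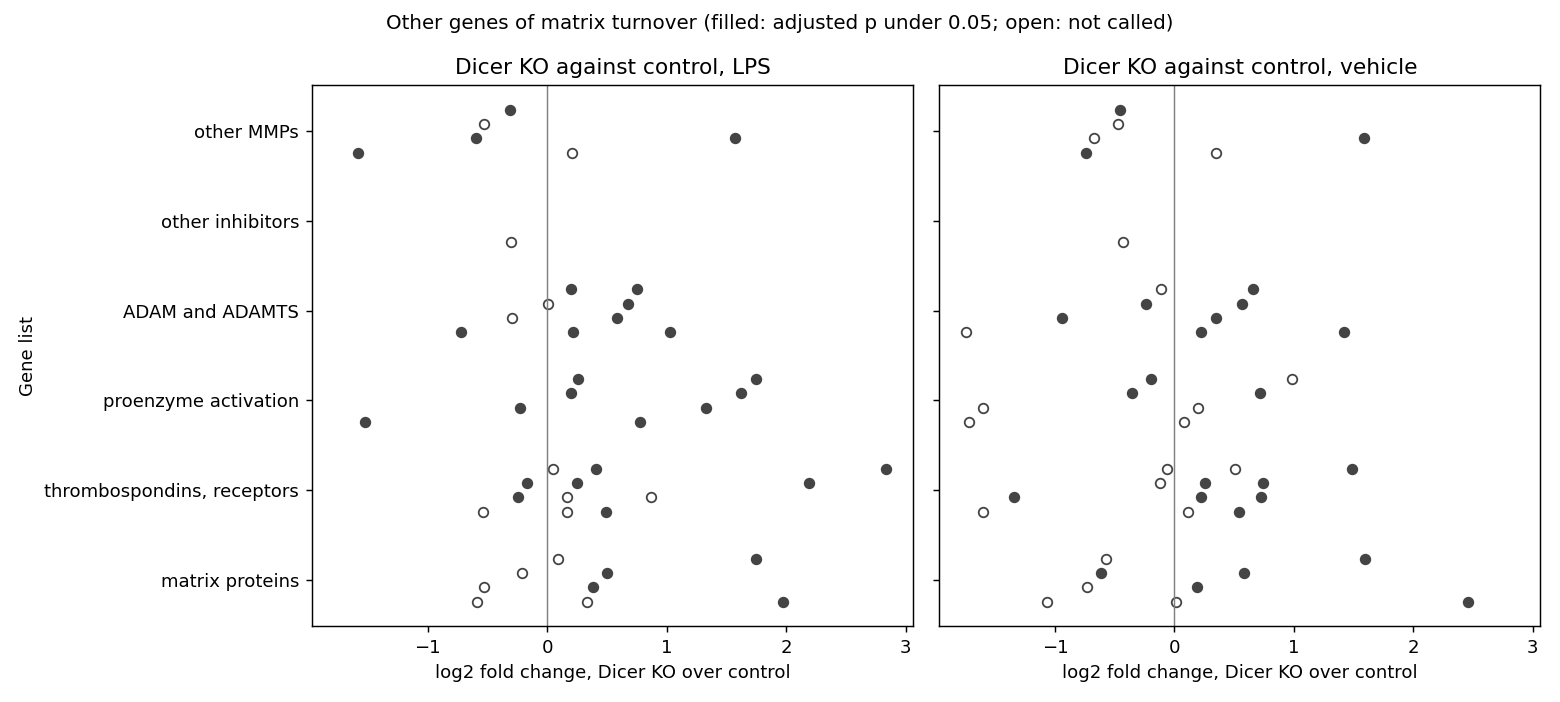
Log2 fold change of Dicer KO over control for the 45 tested genes of the matrix turnover list in LPS (left) and vehicle (right), by role, with filled points for an adjusted p under 0.05. In LPS 22 of the 45 are called higher and 8 lower, and in vehicle 17 are called higher and 8 lower.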

How the data were processed

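RNA was sequenced from 12 macrophage cultures, and the authors deposited 1 table per library of raw counts of reads for every Ensembl gene. Libraries were made with a kit for stranded mRNA, per the labels' protocols. STAR 2.5, DESeq2 and the builds mm10 and GRCm38.p5 are named, per the submitters' processing notes. The program that counted reads, whether it used strand, and its annotation release were not given in the sources used here. Rows that name no gene held 56.74 to 58.29% of reads and were left out of library sizes and tests. Symbols and GRCm38 coordinates came from GENCODE M21, which matched 45143 of 46078 identifiers, and the unmatched ones held 0.141% of the counts.

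The fit used edgeR 4.0.16 under R 4.3.3, with filterByExpr by group (13837 genes kept), TMM scaling and a robust quasi-likelihood fit of 1 mean per group to all 12 libraries. The biological coefficient of variation was 6.30%. The 5 comparisons were Dicer KO against control in LPS and in vehicle, LPS against vehicle within both genotypes, and the difference between those LPS responses, each adjusted by the Benjamini-Hochberg method and tested two-sided at 0.05. Mean and SD are over n = 3 libraries and log2 fold changes carry the model's standard errors. The scripts were tested on simulated data. Per library total without TMM, 3 counts are 0.159 to 0.185 CPM, and such limits cover counting error only.

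The members and lists were chosen with earlier results of these data known. All members are named, and from each role list up to 3 called genes of smallest adjusted p per comparison with at least 5 CPM in the higher group could be named; some listed genes are not reported here. Pattern matches used log2 CPM with a prior count of 2, among genes with 5 CPM in some group. The alternatives were DESeq2 1.42.0, its size factors in edgeR, library totals, no low-count filter, a filter of 5 CPM in 3 libraries, a replicate block, only the groups compared, a fit without robust dispersion, leaving out each library in turn, and leaving out both libraries that stood apart.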

Additional observations from a re-analysis of the deposited data

Results flagged for a closer look

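The LPS responses of 3 members differed between the genotypes in a test of the difference itself (edgeR, Dicer KO minus control). Mmp14 differed by 1.04 on the log2 scale, with a 243-fold rise in Dicer KO and a 118-fold rise in control (edgeR adjusted p = 1.08e-05). Timp2 differed by 0.40, with a 2.94-fold fall in Dicer KO and a 3.88-fold fall in control (edgeR adjusted p = 0.00036). Thbs1 differed by 3.09, with no called change in Dicer KO and a 5.76-fold fall in control (edgeR adjusted p = 0.0282). Groups of 3 libraries are too small for an outlier test.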

How the results depend on the processing

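The 45 values of the 9 tested members, of which 29 were called, were recomputed under 21 alternatives, except that the difference of responses could not be fitted to only the groups compared and Mmp9 did not pass the stricter filter. Of the 29 calls, 20 kept their direction and side of the threshold under every alternative that gave a value, and 6 were lost when some single library was left out. Leaving out each library in turn gave 4 to 5 members called for the genotypes in LPS, 4 to 6 in vehicle, 6 to 7 for LPS in Dicer KO, 8 for LPS in control and 2 to 4 for the difference of responses. For the matrix turnover list the ranges were 26 to 33, 22 to 28, 38 to 40, 39 to 42 and 11 to 15 in the same order. Without the low-count filter 5 members were called for the difference of responses, Mmp12 and Mmp19 joining, against 3.

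Directions turned for values near 0 or under library totals. For Dicer KO against control in LPS, Mmp8 was 0.005 with the size factors of DESeq2 and with DESeq2 itself, and with library totals Mmp14 was -0.171, Timp1 -0.334 and Timp2 -0.038. With library totals LPS gave -0.669 for Mmp9, -0.476 for Mmp19 and -0.181 for Thbs1 in Dicer KO and -0.521 for Mmp19 in control. The difference of responses was then -0.015 for Mmp8, -0.02 for Mmp12 and -0.044 for Timp1. Mmp19 with LPS in control was -0.047 without a filter, -0.029 with the stricter filter and -0.094 without both libraries that stood apart. Leaving out 1 library gave ranges across 0 for Timp1 between the genotypes (-0.057 to 0.108 in LPS, -0.423 to 0.099 in vehicle), Mmp8 (-0.107 to 0.047) and Mmp9 (-0.378 to 0.006) between the genotypes in LPS, Mmp19 with LPS in control (-0.094 to 0.099), Mmp9 with LPS in Dicer KO (-0.081 to 0.304) and the Timp1 difference of responses (-0.082 to 0.44). Library totals moved the median of all genes to -0.848 for LPS in Dicer KO, -0.577 in control and -0.269 for the difference of responses, and the higher and lower calls to 2637 and 9623, 3066 and 8737, and 997 and 5136 genes, against 5173 and 5905, 5258 and 5690, and 2067 and 2602. Causes were not tested.

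The replicate numbers showed no clear pairing of the libraries. Deviations of same-numbered libraries correlated at -0.23 to 0.18 over 18 pairs. Among 3 replicate numbers, 6 of 12 libraries correlated best with their own, and a weak pairing cannot be told from none. With a replicate block 5, 6, 7, 8 and 2 members were called in the 5 comparisons in that order, the Thbs1 difference of responses being 3.049 (edgeR adjusted p = 0.0523). At this depth Timp3 was not measurable, and Mmp9 and vehicle Timp1 rest on few counts.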

Other observations

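Spp1, osteopontin, was the most abundant gene of the matrix protein list that the naming rule took, at 3841 ± 459 CPM in Dicer KO vehicle and 2572 ± 372 CPM in control vehicle (SD, n = 3), 1.49-fold higher (edgeR adjusted p = 0.000122), and 18.75% of its exons are shared with Gm42793 on the same strand. Vcan, the proteoglycan versican, averaged 454 ± 16.1 CPM in control LPS and 10.1 ± 2.96 CPM in control vehicle, 44.7-fold higher (edgeR adjusted p = 2.52e-09). Sdc4, the heparan sulfate proteoglycan syndecan 4, averaged 1910 ± 94.9 CPM in Dicer KO LPS and 143 ± 1.93 CPM in Dicer KO vehicle, 13.4-fold higher (edgeR adjusted p = 1.52e-19), and 2150 ± 14 CPM in control LPS and 149 ± 9.63 CPM in control vehicle, 14.4-fold higher (edgeR adjusted p = 1.34e-19). Adam8, a membrane-bound proteinase of leukocytes, was 2.61-fold lower with LPS in Dicer KO and 4.62-fold lower in control (edgeR adjusted p = 4.48e-15 and 8.52e-18). The aggrecanase gene Adamts4 averaged 20.5 ± 2.01 CPM in Dicer KO LPS and 25.1 ± 6.15 CPM in control LPS, with 2 counts in all in Dicer KO vehicle and 9 in control vehicle.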
